A study of Mus musculus with 4 samples.

Results

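The genes described here are 52 genes of mitotic control, the kinetochore and condensin, that is, of the machinery that lets a cell enter mitosis, move its chromosomes and divide. They were chosen by name: a row of the count table entered when its gene name was that of a mitotic kinase, a cyclin or Cdk1 regulator, a component of the spindle checkpoint, kinetochore or condensin, a spindle or cytokinesis factor, or one of a few nuclear envelope and chromatin proteins, with the kinesins left out. All 52 were found among the 19353 genes of the table.

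The cells were muscle stem cells (MuSCs, also called satellite cells) of the mouse plantaris muscle, from Pax7-CreERT2:Rosa-YFP animals in both groups. In these mice a tamoxifen-inducible Cre recombinase, made where the Pax7 gene is active, switches on yellow fluorescent protein (YFP), so that YFP marks cells that had expressed Pax7 when tamoxifen was given and also their descendants. In the overload group the distal tendons of the gastrocnemius and soleus were cut (tenotomy), which shifts load to the plantaris, and cells were collected 4 days later. The sham group had the skin incision only, and the mice of both groups had received tamoxifen. In other experiments of the study the sham muscle was the contralateral one, so a sham and an overload library may share a mouse. YFP was the sole sorting criterion stated, and each tube received 100 cells, with 2 libraries per group. Neither the age of the mice nor whether the libraries were made from separate mice is given in the sources used here, so p-values measure only the spread between these samples, which may be technical. CEL-Seq2 reads the 3′ end of each transcript and tags each captured molecule with a unique molecular identifier (UMI), so a count is a number of molecules and does not scale with transcript length. Depth was 269683 and 260488 UMIs in sham replicates 1 and 2, and 387955 and 483528 UMIs in overload replicates 1 and 2, which is 2697, 2605, 3880 and 4835 UMIs per sorted cell.

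Entry into mitosis is driven by the kinase Cdk1 bound to cyclins A and B. Condensin then compacts the chromosomes, kinetochores attach them to the spindle, the spindle checkpoint holds back separation until every chromosome is attached, and the anaphase-promoting complex releases it by marking securin and cyclin B for destruction. Most transcripts of this machinery are made late in the cell cycle and are scarce in quiescent cells, and MuSCs of resting adult muscle are mostly quiescent.

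All 10 satellite cell markers examined were detected in every library, with summed counts of 1698 and 1421 UMIs in sham and 1982 and 2218 UMIs after overload. Pax7 itself gave 118, 107, 108 and 137 UMIs in the same order. Relative to the other transcripts 6 of the 10 were lower after overload and 2 higher, beside 26.3% lower and 25.8% higher over all genes tested at an edgeR adjusted p of 0.1. The sham counts of all 10 alone sufficed for testing, and of all such genes 36.5% were lower and 13.6% higher. As UMIs per tube 2 of the 10 were lower and 4 higher, beside 4.58% and 62.0% over all genes tested and 6.38% and 51.4% of such genes. Markers of other cells were present too. The 12 leukocyte markers summed to 3 and 6 UMIs in sham and 73 and 180 UMIs after overload, with Lyz2 the most abundant (0 and 0, then 17 and 38 UMIs), 8 of the 12 at 0 in both sham libraries, and Ptprc, the pan-leukocyte gene, at 0, 1, 1 and 4 UMIs. The 7 endothelial markers summed to 18, 16, 44 and 43 UMIs, with Tek the most abundant over the 4 libraries. Tek went against this sum, with 10, 12, 5 and 11 UMIs and a log2 fold change of -1.41 (edgeR adjusted p = 0.015). It was the only endothelial marker tested and was not called as UMIs per tube. The other endothelial markers, among them Cdh5 with 3, 1, 14 and 11 UMIs, all had more UMIs after overload. Among the 6 markers of fibro-adipogenic progenitors, the sums were 376, 361, 316 and 414 UMIs, mostly Col15a1, Dpt and Dcn, while the defining receptor Pdgfra stood at 0, 0, 2 and 0 UMIs. In summed CPM, a scale brought to a common library total, this list went from 1636 in sham to 830 after overload, a ratio of 0.507. Of its 4 tested genes Dcn, Dpt and Col15a1 were lower, with log2 fold changes of -0.38, -1.43 and -1.55. The sham counts of these 3 alone sufficed for testing, and 36.5% of all such genes were lower. Of the 3, 2 were lower with library sizes alone and with the abundance offsets, beside 26.0% and 31.8% of such genes. As UMIs per tube 2 of the 3 were lower and 1 higher, beside 6.38% and 51.4%. Ly6a (Sca-1), with 1, 0, 22 and 41 UMIs, was called higher but could be tested only through its overload counts. The 6 mural cell markers summed to 177, 153, 458 and 674 UMIs, mostly Acta2, with the smooth muscle gene Myh11 at 0 in both sham libraries and in overload replicate 1. The 3 glial markers found summed to 2, 2, 7 and 3 UMIs. The 6 myofiber markers, led by Acta1, summed to 325, 175, 1076 and 1273 UMIs. A tube pools its cells, so a larger share of cells in mitosis and more mRNA per mitotic cell cannot be told apart in any value given here.

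The 52 genes together gave 244 and 272 UMIs in the sham libraries and 2129 and 2667 UMIs in the overload libraries. In every sham library they took about the same small part of all UMIs, 0.0905% (95% Wilson interval 0.0798% to 0.103%) and 0.104% (0.0927% to 0.118%), and in every overload library a larger one, 0.549% (0.526% to 0.573%) and 0.552% (0.531% to 0.573%). These intervals, like all counting intervals and floors given here, cover counting error only. Per sorted cell this was 2.44 and 2.72 UMIs in sham against 21.3 and 26.7 after overload. On the CPM scale, counts brought to a common library total with edgeR's TMM factors, the summed level went from 1147 ± 120 (SD, n = 2) in sham to 5468 ± 95.3 (SD, n = 2) after overload, a ratio of 4.77 with no overlap between sham and overload. The log2 of that ratio, 2.25, was 2.50 with library sizes alone and 3.22 as UMIs per tube, scalings under which the median log2 fold change of all genes tested moved from 0.05 to 0.33 and to 1.01.

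Most of the sham signal came from few genes. In sham, 10 of the 52 genes had 0 UMIs in both libraries, 21 had 1 to 3 UMIs over both, 9 had 4 to 9 and only 12 had 10 or more. Those 12 genes supplied 84.0% and 81.3% of the mitotic UMIs of the sham libraries but 35.3% and 33.0% of those of the overload libraries. At least 1 UMI was seen for 36 and 37 of the 52 genes in the sham libraries and for all 52 in each overload library. Of all 19353 genes, 13455 and 13437 were seen in the sham libraries and 15476 and 15816 in the deeper overload libraries. The plot of UMIs by gene and library shows this shift from left to right for nearly every row.

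**Figure D1:**
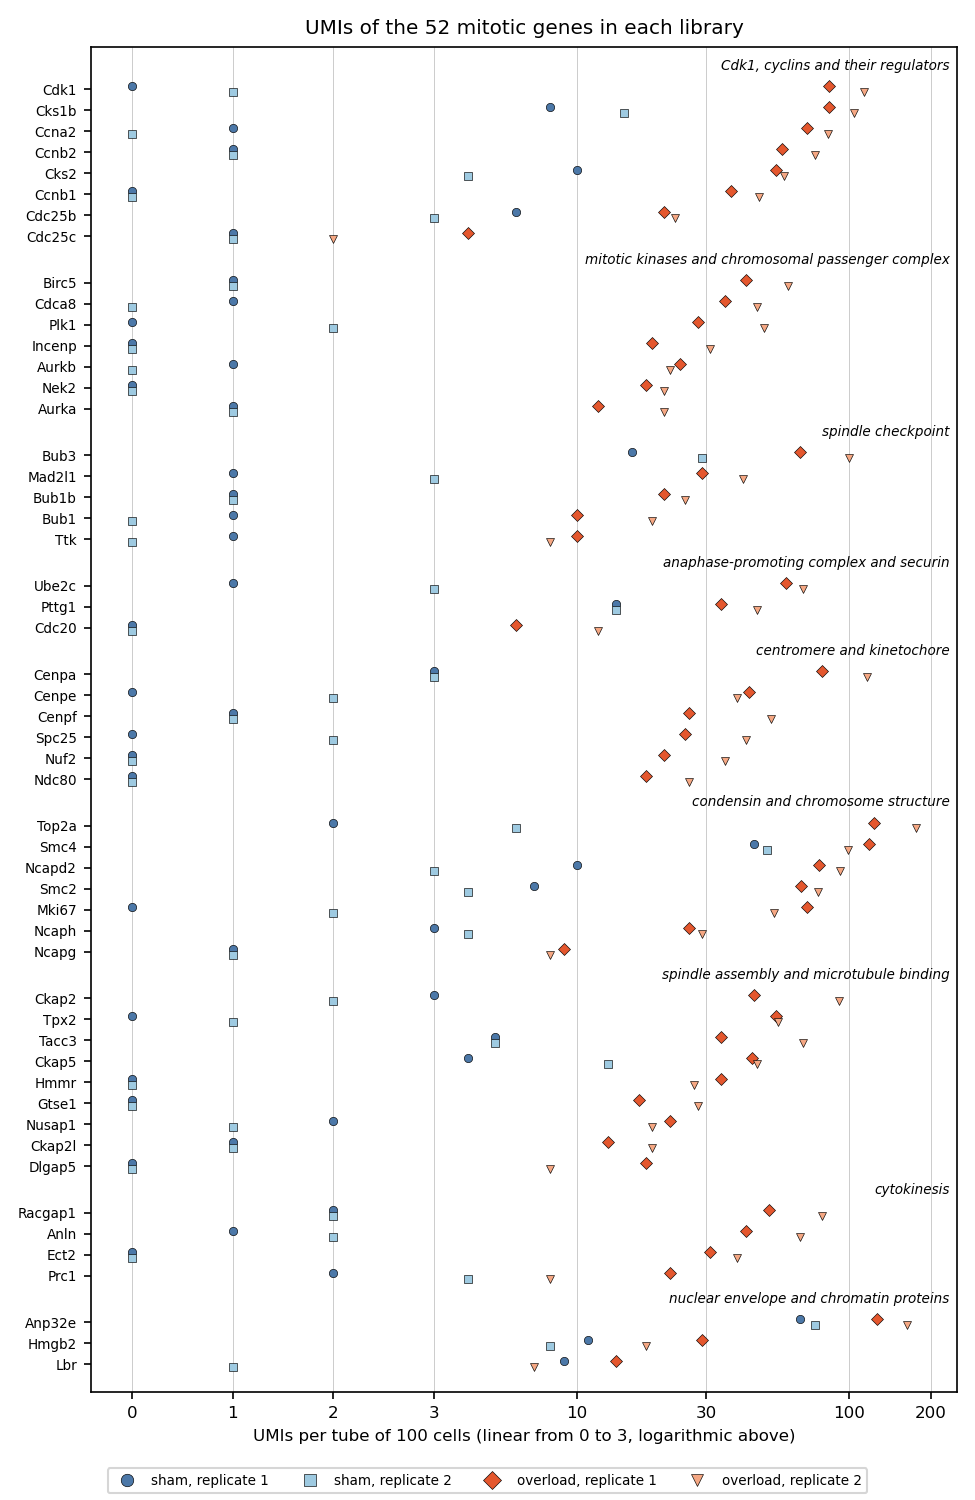
UMIs of each of the 52 mitotic genes per tube of 100 cells in the 4 libraries, grouped by role, on an axis that is linear from 0 to 3 and logarithmic above; replicate 1 is drawn slightly above and replicate 2 slightly below each gene's line so that equal counts stay visible. Most genes sit at 0 to 3 UMIs in sham and between 10 and 200 after overload, whereas Anp32e, Smc4 and Bub3 already had at least 16 UMIs in each sham library.

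Of the 52 genes, 45 had enough counts to be tested, 40 of these were higher after overload and 0 were lower at an adjusted p of 0.1 (quasi-likelihood test of edgeR, adjusted by Benjamini-Hochberg over 7228 genes). Over all genes tested, 25.8% were higher and 26.3% lower. The 40 do not carry equal weight. Genes with fewer than 10 sham UMIs could not pass the count filter without their overload counts and so were nearly bound to differ: 94.6% of all such genes were called higher, as were 33 of the 33 mitotic genes of this kind, and nothing is read from that count. Of the 12 with 10 or more sham UMIs, 7 were higher, 0 were lower and 5 did not pass. Over all 6529 tested genes with 10 or more sham UMIs, 18.5% were higher and 29.1% lower. For most of the 12, too, the overload counts helped them past the filter. The filter asked for at least 9 and 8 UMIs in the sham libraries or 12 and 15 in the overload libraries, in any 2 of the 4. The sham libraries alone carried only 5 of the 52 genes past it, Anp32e, Smc4, Bub3, Pttg1 and Hmgb2, and these are the ones that would have been tested whichever way they went. Among them 1, Bub3, was higher and 0 were lower, beside 13.6% higher and 36.5% lower over all 5187 genes of this kind. Their median log2 fold change was 0.36, beside -0.27 over those genes. Both overload libraries lay above both sham libraries in CPM for 2 of the 5, beside 23.7%. The smallest library had a floor of 13.6 CPM for 3 counts, and the 7 genes left untested were Cdc25c, Bub1, Ttk, Cdc20, Ncapg, Dlgap5 and Prc1.

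The promoters of these genes were read from RefSeq (GRCm38.p6), in windows of 250 bases before to 50 bases after each annotated start. The letters TTTGAA were searched as the core of the cell cycle genes homology region (CHR), where the DREAM and MuvB complexes bind, and were also read from the other strand, where they appear as TTCAAA. The letters CCAAT were searched as the box bound by NF-Y, and appear as ATTGG when read from the other strand. Windows were found for 45 of the 52 genes, 49 windows in all; Cdc25c, Ccna2, Dlgap5, Incenp, Aurkb, Tpx2 and Smc4 had none. The CHR letters stood in 69.4% of the 49 windows and in 17.9% of all 32851 windows of that length. For the CCAAT letters the shares were 81.6% and 37.4%, for windows with both 65.3% and 6.95%, and for windows with at least 2 CCAAT matches 59.2% and 11.7%. A match describes letters and is not a binding site, and no binding was measured.

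The promoters shown are 6, those of the genes with the highest overload counts among the ones with a CHR match and no more than 3 sham UMIs, with 120 bases before and 30 after the start, 5′ to 3′ on the gene's strand, which is the minus strand for each. Capitals mark CHR and CCAAT matches. Cdk1 lay at chr10:69352883-69353032, Ccnb2 (cyclin B) at chr9:70421525-70421674, Mki67 (the proliferation antigen Ki67) at chr7:135716350-135716499, Anln (anillin) at chr9:22389177-22389326, Cdca8 (borealin) at chr4:124936888-124937037 and Cenpf (a kinetochore protein) at chr1:189688057-189688206.
Cdk1: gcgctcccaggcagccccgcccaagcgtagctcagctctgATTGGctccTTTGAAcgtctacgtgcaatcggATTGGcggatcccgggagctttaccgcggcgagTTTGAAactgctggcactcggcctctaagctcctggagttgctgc
Ccnb2: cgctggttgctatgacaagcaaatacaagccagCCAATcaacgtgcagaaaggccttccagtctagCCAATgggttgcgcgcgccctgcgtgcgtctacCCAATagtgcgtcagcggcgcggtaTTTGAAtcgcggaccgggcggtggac
Mki67: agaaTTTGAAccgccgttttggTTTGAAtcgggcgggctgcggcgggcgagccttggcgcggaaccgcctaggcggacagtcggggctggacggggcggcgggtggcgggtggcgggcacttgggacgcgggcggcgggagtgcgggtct
Anln: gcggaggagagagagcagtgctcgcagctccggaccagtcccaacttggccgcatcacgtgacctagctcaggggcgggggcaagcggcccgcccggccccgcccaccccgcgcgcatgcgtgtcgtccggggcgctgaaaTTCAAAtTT
Cdca8: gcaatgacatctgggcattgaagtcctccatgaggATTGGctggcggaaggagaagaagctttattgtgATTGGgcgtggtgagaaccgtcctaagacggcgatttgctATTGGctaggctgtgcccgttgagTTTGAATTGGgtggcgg
Cenpf: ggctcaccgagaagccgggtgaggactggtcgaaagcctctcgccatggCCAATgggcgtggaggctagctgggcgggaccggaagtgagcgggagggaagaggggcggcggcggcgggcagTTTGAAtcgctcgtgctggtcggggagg
In Cdk1 the CHR letters appear at 2 places, each downstream of an ATTGG. Ccnb2 has a row of 3 CCAAT matches and then a CHR match close to its start, and in Cdca8 the CHR match and the last CCAAT match share a base. Anln has no CCAAT match in its window, and its final 2 capitals open a second CHR match that runs past the printed stretch. Counted per window, 31 of the 45 CHR matches began within 50 bases of the start, as the plot of match positions shows. Some genes have overlapping windows, so that 4 of the 45 repeat a match of another window, and of the 41 distinct matches 29 began within 50 bases of a start. The genes with neither kind of match were 7: Birc5, Mad2l1, Ncaph, Nuf2, Nusap1, Pttg1 and Tacc3.

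**Figure D2:**
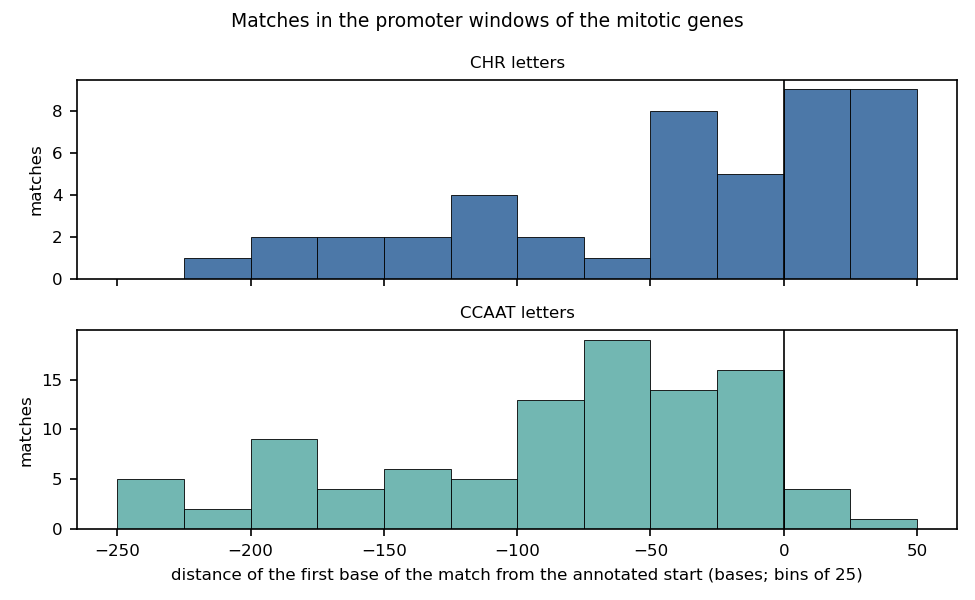
Number of matches to the CHR letters (top) and CCAAT letters (bottom) in the promoter windows of the mitotic genes, in bins of 25 bases by the distance of the first base of the match from the annotated start, with negative distances upstream. Of the 45 CHR matches counted per window, 4 of them repeats in overlapping windows of a gene, 31 began within 50 bases of the start.

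Counts of a gene are given from here on in the order sham replicate 1, sham replicate 2, overload replicate 1 and overload replicate 2. Ratios of overload to sham use TMM-scaled UMIs with a 95% exact binomial interval, and for a gene with 0 sham UMIs the ratio is a lower bound against a floor of 3 UMIs over the sham group. Cks1b, Cks2, Smc2, Ncapd2, Tacc3 and Ckap5, called higher below, passed the count filter only with the help of their overload counts. Their adjusted p-values describe the fit and are not read as support for a rise.

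Cdk1 and its partners summed to 115 ± 3.02 CPM (SD, n = 2) in sham and 1051 ± 31.9 CPM (SD, n = 2) after overload, a ratio of 9.11. Cdk1, the kinase that starts mitosis, was counted 0, 1, 85 and 114 times. A single UMI in 200 sham cells therefore stood against about 1 UMI per cell after overload, a ratio of 199 as UMIs per tube. The TMM-scaled ratio was 102 (18.1 to 4051). Ccna2 (cyclin A), with 1, 0, 70 and 84 UMIs, had a ratio of 79.0 (13.97 to 3139). Ccnb2, with 1, 1, 57 and 75 UMIs, had a ratio of 33.8 (9.19 to 282), and Ccnb1, with 0, 0, 37 and 47 UMIs, was at least 14.4-fold higher. Kinase and cyclins were thus at 0 or 1 UMI in each sham library and at 37 or more in each overload library.

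The small Cdk-binding proteins of the same group were already present in sham. Cks1b had 8, 15, 85 and 105 UMIs, or 51.4 ± 23.4 CPM in sham and 217 ± 5.92 CPM (SD, n = 2) after overload, a log2 fold change of 2.08 (SE 0.29, adjusted p = 2.6e-05 by edgeR's quasi-likelihood test). Cks2 had 10, 4, 54 and 58 UMIs, 30.8 ± 17.97 CPM in sham and 129 ± 16.2 CPM after overload, a log2 fold change of 2.03 (SE 0.38, edgeR adjusted p = 3.9e-04). Their ratios were 4.24 (2.74 to 6.85) and 4.10 (2.35 to 7.75), and both overload libraries lay above both sham libraries. The size for Cks2 depended on the sham libraries, with a log2 fold change of 2.76 when sham replicate 1 was left out and 1.51 when sham replicate 2 was. The Cdk1-activating phosphatases were low throughout. Cdc25b, with 6, 3, 21 and 23 UMIs, had a ratio of 2.51 (1.21 to 5.84) and could be tested only through its overload counts. Its call as higher was lost without sham replicate 2, without either overload library, with the abundance offsets and in DESeq2. Cdc25c, with 1, 1, 4 and 2 UMIs, was too rare to test and its ratio of 1.54 had an interval of 0.28 to 15.6.

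Mitotic kinases and the chromosomal passenger complex, which corrects wrong attachments and positions the division plane, were the group most nearly absent from sham, with 4 UMIs in each sham library against 178 and 250 after overload. Their summed level was 17.8 ± 0.50 CPM in sham and 485 ± 30.7 CPM (SD, n = 2) after overload, a ratio of 27.3. All 4 passenger subunits had 0 or 1 UMI in each sham library. Birc5 (survivin) had 1, 1, 42 and 60 UMIs, a ratio of 26.2 (7.06 to 219). Cdca8 had 1, 0, 35 and 46 UMIs, a ratio of 41.5 (7.25 to 1661). Incenp, the scaffold, had 0, 0, 19 and 31 UMIs, at least 8.55-fold higher, and Aurkb, its kinase, had 1, 0, 24 and 22 UMIs, with a ratio of 23.6 (4.03 to 952). Of the kinases that act at centrosomes, Plk1 had 0, 2, 28 and 49 UMIs with a ratio of 19.7 (5.28 to 166). Nek2 had 0, 0, 18 and 21 UMIs, and Aurka had 1, 1, 12 and 21 UMIs. The sham counts of these kinases never exceeded 2 and their overload counts never fell under 12.

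The spindle checkpoint split into a component that sham MuSCs already made and others that they hardly did. Bub3, which docks the checkpoint proteins on kinetochores, had 16, 29, 66 and 100 UMIs. Its level was 101 ± 43.6 CPM in sham and 187 ± 21.8 CPM (SD, n = 2) after overload, a log2 fold change of 0.91 (SE 0.27, edgeR adjusted p = 0.011). This call rested on the lower sham library, since without sham replicate 1 the log2 fold change was 0.48 (edgeR adjusted p = 0.25), whereas without sham replicate 2 it was 1.39; it was also lost in DESeq2 (adjusted p = 0.14). The other components lay at 0 to 3 UMIs in each sham library. Mad2l1, the inhibitor of Cdc20, had 1, 3, 29 and 41 UMIs, a ratio of 8.97 (3.35 to 33.9). Bub1b (BubR1) had 1, 1, 21 and 25 UMIs, a ratio of 11.8 (3.08 to 100). Bub1 had 1, 0, 10 and 19 UMIs and Ttk, the Mps1 kinase, 1, 0, 10 and 8 UMIs, both too few to be tested. Summed, the checkpoint genes went from 118 ± 44.1 to 372 ± 26.3 CPM (SD, n = 2), a ratio of 3.15.

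The genes that trigger anaphase differed among themselves. Ube2c, the ubiquitin-conjugating enzyme of the anaphase-promoting complex, had 1, 3, 59 and 68 UMIs, a ratio of 16.3 (6.21 to 60.7). Cdc20, the activator of the complex in mitosis, was rare in all libraries, with 0, 0, 6 and 12 UMIs. Pttg1 (securin), which keeps separase inactive, had 14, 14, 34 and 46 UMIs. Its level was 62.2 ± 1.75 CPM in sham and 90.8 ± 3.36 CPM (SD, n = 2) after overload, so that the groups did not overlap, yet the log2 fold change of 0.55 (SE 0.32, edgeR adjusted p = 0.17) did not pass. It did pass as UMIs per tube (1.51, edgeR adjusted p = 0.0037), with library sizes alone (0.82, edgeR adjusted p = 0.042) and with libraries thinned to equal size (0.74, edgeR adjusted p = 0.094).

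Centromere and kinetochore genes went from 26.8 ± 13.3 CPM in sham to 592 ± 53.7 CPM (SD, n = 2) after overload, a ratio of 22.1. Cenpa, the histone variant that marks centromeres, had 3, 3, 80 and 117 UMIs, a ratio of 16.8 (7.60 to 46.4). Cenpe, the kinetochore motor, had 0, 2, 43 and 39 UMIs, a ratio of 21.0 (5.64 to 177). Cenpf had 1, 1, 26 and 52 UMIs, with an interval of 5.35 to 168 for its ratio. Cenpa was thus the only one of the 6 with more than 2 UMIs in a sham library. The microtubule-binding Ndc80 complex was represented by 3 subunits. Spc25 had 0, 2, 25 and 42 UMIs, a ratio of 17.2 (4.57 to 145), Nuf2 had 0, 0, 21 and 35 UMIs, at least 9.57-fold higher, and Ndc80 had 0, 0, 18 and 26 UMIs, at least 7.52-fold higher. The 3 subunits of this complex therefore lay within a narrow range after overload, 18 to 25 UMIs in replicate 1 and 26 to 42 in replicate 2.

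Among the condensin subunits Smc4 stood apart in sham. Smc4, an ATPase shared by both condensin complexes, was abundant in sham, with 45, 50, 119 and 99 UMIs. Its level was 211 ± 21.7 CPM in sham and 255 ± 77.0 CPM (SD, n = 2) after overload, and the log2 fold change of 0.25 (SE 0.23, edgeR adjusted p = 0.39) did not pass. The overload libraries disagreed for it, at 309 and 200 CPM, and the second of these lay within the sham range. Without overload replicate 2 the log2 fold change was 0.59 (edgeR adjusted p = 0.031) and without overload replicate 1 it was -0.051; it passed also under 3 other scalings, as UMIs per tube (1.196, adjusted p = 9.3e-04), with library sizes alone (0.53, adjusted p = 0.048) and with the abundance offsets (0.55, adjusted p = 0.049).

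Its partner ATPase Smc2 was scarce in sham, with 7, 4, 67 and 77 UMIs. Smc2 rose from 24.3 ± 8.73 to 165 ± 12.9 CPM (SD, n = 2), a log2 fold change of 2.73 (SE 0.35, edgeR adjusted p = 1.2e-05). It passed the count filter only through its overload counts. Ncapd2, a subunit of condensin I, had 10, 3, 78 and 93 UMIs, and rose from 28.6 ± 21.2 to 196 ± 10.2 CPM (SD, n = 2), a log2 fold change of 2.74 (SE 0.35, edgeR adjusted p = 1.2e-05). The ratios of Smc2 and Ncapd2 were 6.71 (3.64 to 13.7) and 6.75 (3.84 to 12.9). That of Ncapd2 depended on the sham libraries: its log2 fold change was 3.78 without sham replicate 1 and 2.12 without sham replicate 2, against 3.12 and 2.38 for Smc2. In sham, Smc4 counts were 6.43 and 12.5 times those of Smc2, and after overload 1.78 and 1.29 times. The kleisin Ncaph had 3, 4, 26 and 29 UMIs, a ratio of 4.03 (1.83 to 10.5), and Ncapg had 1, 1, 9 and 8 UMIs, too few to test. Top2a, the topoisomerase that untangles sister chromatids, had 2, 6, 124 and 176 UMIs, a ratio of 19.2 (9.64 to 45.0), and Mki67, which coats mitotic chromosomes, had 0, 2, 70 and 53 UMIs, a ratio of 31.5 (8.55 to 263). Both genes had at most 6 UMIs in a sham library and at least 53 in an overload library.

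Spindle genes went from 84.7 ± 27.5 to 732 ± 1.73 CPM (SD, n = 2), a ratio of 8.64, and most of the sham level came from Ckap5 and Tacc3, partners in a complex that promotes microtubule growth. Ckap5 (chTOG) had 4, 13, 44 and 46 UMIs, 38.2 ± 29.3 CPM in sham and 104 ± 15.03 CPM (SD, n = 2) after overload, a log2 fold change of 1.44 (SE 0.41, edgeR adjusted p = 0.0092). The call was lost without sham replicate 1 (0.77, edgeR adjusted p = 0.16), and without sham replicate 2 the value was 2.50. Tacc3 had 5, 5, 34 and 68 UMIs, and rose from 22.2 ± 0.63 to 113 ± 34.9 CPM (SD, n = 2), a log2 fold change of 2.35 (SE 0.42, edgeR adjusted p = 2.9e-04). Ckap2 had 3, 2, 45 and 92 UMIs, a ratio of 14.1 (5.88 to 44.0). Tpx2, which activates Aurka on the spindle, had 0, 1, 54 and 55 UMIs, a ratio of 55.9 (9.82 to 2228). The other 5, Hmmr, Gtse1, Nusap1, Ckap2l and Dlgap5, had 0 to 2 UMIs in each sham library. After overload Hmmr had 34 and 27 UMIs, at least 10.4-fold higher than sham, and Gtse1 had 17 and 28 UMIs, at least 7.69-fold higher. Nusap1 had 22 and 19, Ckap2l 13 and 19 and Dlgap5 18 and 8 UMIs.

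The cytokinesis genes summed to 29.0 ± 10.2 CPM in sham and 385 ± 7.93 CPM (SD, n = 2) after overload, a ratio of 13.3. Racgap1, a subunit of centralspindlin, had 2, 2, 51 and 80 UMIs, a ratio of 16.8 (6.41 to 62.6). Ect2, the exchange factor that activates RhoA at the division plane, had 0, 0, 31 and 39 UMIs, at least 12.0-fold higher. Anln, which links RhoA to the contractile ring, had 1, 2, 42 and 66 UMIs, a ratio of 18.5 (6.15 to 90.9). Prc1, which bundles the microtubules of the central spindle, was the exception: its counts of 2, 4, 22 and 8 UMIs gave 57.2 and 16.2 CPM in the overload libraries, and the second lay below the 18.1 CPM of sham replicate 2.

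The nuclear envelope and chromatin proteins stood apart, with 377 ± 4.37 CPM in sham and 412 ± 41.9 CPM (SD, n = 2) after overload, a ratio of 1.09, and 0 of 3 past the threshold. Anp32e, a chaperone of the histone variant H2A.Z, had 66, 75, 127 and 164 UMIs, which was 314 ± 37.1 CPM in sham and 331 ± 1.34 CPM (SD, n = 2) after overload. Its log2 fold change was 0.08 (SE 0.17, edgeR adjusted p = 0.74), and the interval of its ratio was 0.86 to 1.30. Hmgb2, an abundant DNA-bending protein, had 11, 8, 29 and 18 UMIs, 42.1 ± 8.23 and 55.9 ± 27.5 CPM, with a log2 fold change of 0.36 (SE 0.44, edgeR adjusted p = 0.54). Lbr, the lamin B receptor, had 9, 1, 14 and 7 UMIs, 21.9 ± 24.5 and 25.3 ± 15.7 CPM, with a log2 fold change of 0.11 (SE 0.65, edgeR adjusted p = 0.91). In all 3 the groups overlapped in CPM, and for Lbr and Hmgb2 the intervals of the ratio, 0.49 to 2.56 and 0.73 to 2.29, still allow a change of 2-fold. Anp32e was higher as UMIs per tube (1.04, edgeR adjusted p = 9.0e-04), with library sizes alone (0.36, adjusted p = 0.090) and with the abundance offsets (0.60, adjusted p = 0.0074), and Hmgb2 as UMIs per tube (1.30, adjusted p = 0.022).

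**Figure D3:**
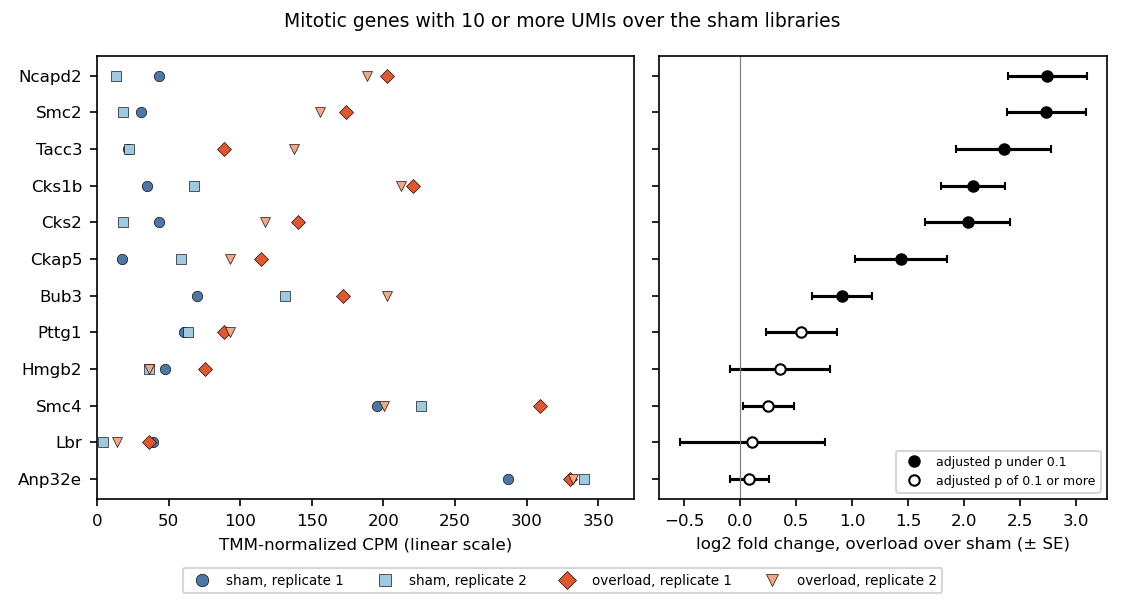
The 12 mitotic genes with at least 10 UMIs over the sham libraries: left, TMM-normalized CPM in each library on a linear axis; right, log2 fold change of overload over sham with its SE. Ncapd2, Smc2, Tacc3, Cks1b, Cks2, Ckap5 and Bub3 passed the threshold (filled), whereas Pttg1, Hmgb2, Smc4, Lbr and Anp32e did not (open). Of the filled genes only Bub3 was carried past the count filter by the sham libraries alone.

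**Figure D4:**
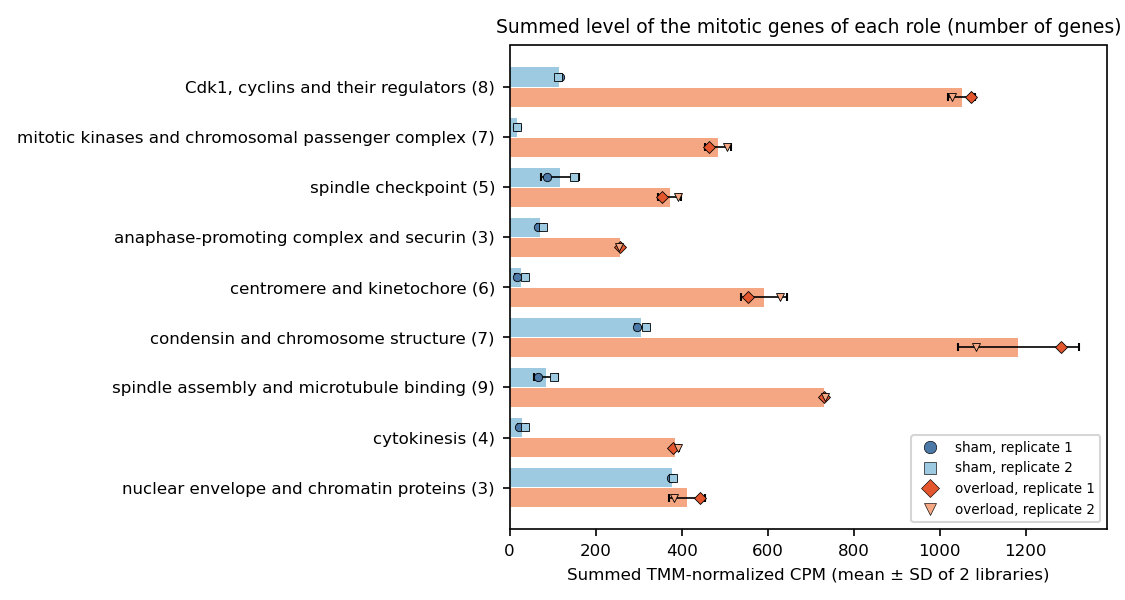
Summed TMM-normalized CPM of the mitotic genes of each role, with bars for the mean of 2 libraries, error bars for the SD and points for the libraries. The ratio of overload to sham ran from 1.09 for the nuclear envelope and chromatin proteins to 27.3 for the kinases and the chromosomal passenger complex.

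The overload libraries agreed closely. Of the 52 genes, 27 were higher in CPM in overload replicate 1 and 25 in replicate 2, the median ratio of replicate 1 to replicate 2 was 1.02, and 39 genes lay within 1.5-fold of each other. Outside that range, 9 genes were higher in replicate 1 (Cdc25c, Ttk, Smc4, Mki67, Hmmr, Dlgap5, Prc1, Lbr and Hmgb2) and 4 in replicate 2 (Cdc20, Cenpf, Tacc3 and Ckap2). The ratio was largest for Prc1, 3.53, on 22 and 8 UMIs, and for Dlgap5, 2.89, on 18 and 8 UMIs. The leukocyte markers summed to 190 CPM in overload replicate 1 and 365 CPM in overload replicate 2, and the mitotic genes to 5536 and 5401 CPM. Without overload replicate 2 the log2 ratio of the summed mitotic level was 2.27. The 5 tested myofiber markers were higher after overload, beside 25.8% over all genes tested. The sham libraries alone carried 4 of them past the filter, and 13.6% of all genes of this kind were higher. Of the 4 tested fibro-adipogenic progenitor markers 3 were lower and 1 higher, beside 26.3% and 25.8%. As UMIs per tube 2 were lower and 2 higher, beside 4.58% and 62.0%. With library sizes alone 2 were lower and 1 higher, beside 18.7% and 37.3%. The abundance offsets gave the same counts, beside 23.4% and 23.9%. The part that leukocytes, myofibers, fibro-adipogenic progenitors or their RNA had in the mitotic counts was not tested.

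**Figure D5:**
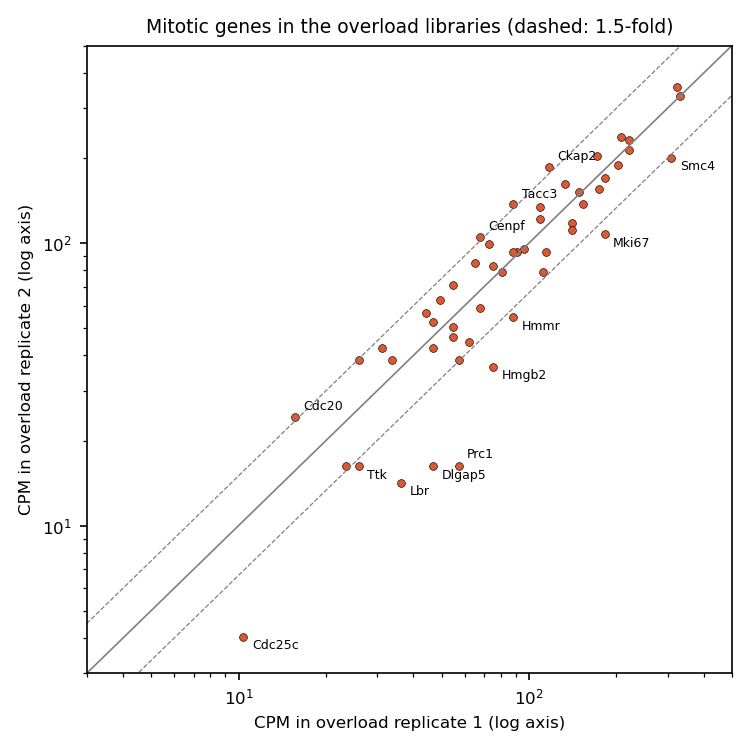
TMM-normalized CPM of the 52 mitotic genes in overload replicate 1 and overload replicate 2, on log axes, with the line of equality and dashed lines at 1.5-fold; genes beyond the dashed lines are named. There were 39 genes between the dashed lines.

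The table held 111 other genes of mitosis. Of 74 tested, 30 were higher and 14 lower, beside 25.8% and 26.3% over all genes tested. Their median log2 fold change was 0.51, and 37 genes were too rare to test. Of those 74, 20 had fewer than 10 sham UMIs and 19 of them were higher, a count from which nothing is read for the reason given above. Of the 38 that the sham libraries alone carried past the filter, 3 were higher and 13 lower, beside 13.6% and 36.5% of all genes of this kind. Among kinetochore and centromere genes, 13 of 17 tested were higher and 0 lower, but the sham libraries alone carried only 3 of the 17 past the filter, of which 1, Hjurp, was higher. Among the other condensin genes, 2 of 3 were higher and 0 lower, and with the abundance offsets 0 of them passed. The sham libraries alone carried 1 of these 3 past the filter, and that gene was neither higher nor lower at the threshold. The cytokinesis list had 2 higher and 2 lower of 7 tested, and 0 higher and 2 lower of the 5 that sham alone carried past the filter. Spc24, the remaining subunit of the Ndc80 complex, had 0, 1, 39 and 50 UMIs and Knl1, its scaffold at the kinetochore, 1, 0, 27 and 26 UMIs. Hjurp, which loads Cenpa, was already counted in sham, with 20, 20, 57 and 82 UMIs, and rose from 88.8 ± 2.51 to 157 ± 12.6 CPM (SD, n = 2), a log2 fold change of 0.83 (SE 0.25, edgeR adjusted p = 0.013). In the cytokinesis list Cit (citron kinase), with 8, 12, 65 and 55 UMIs, rose by a log2 fold change of 1.63 (SE 0.35, edgeR adjusted p = 0.0013). It could be tested only with the help of its overload counts.

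Cohesin, which holds sister chromatids together and also shapes interphase chromosomes, gave counts that depended on the scaling. The sham libraries alone carried 9 of its 11 tested genes past the filter, and of these 6 were lower (Nipbl, Smc1a, Stag1, Stag2, Wapl and Pds5a) and 0 higher, beside 36.5% and 13.6% of all genes of this kind, with a median log2 fold change of -0.46. With library sizes alone 2 of the 9 were lower and 1 higher, beside 26.0% and 24.6%. The abundance offsets gave the same counts, beside 31.8% and 17.4%, and as UMIs per tube 0 were lower and 3 higher, beside 6.38% and 51.4%. In DESeq2 Nipbl alone of the 6 was called lower, and Stag1, Stag2, Wapl and Pds5a did not pass at an edgeR adjusted p of 0.05. Nipbl, the cohesin loader, had 109, 114, 83 and 127 UMIs, and its level fell from 495 ± 29.7 to 236 ± 29.3 CPM (SD, n = 2), a log2 fold change of -1.06 (SE 0.17, edgeR adjusted p = 1.3e-04). Smc1a had 92, 80, 90 and 125 UMIs and a log2 fold change of -0.64 (SE 0.17, edgeR adjusted p = 0.0062). Nipbl was lower also with library sizes alone and with the abundance offsets (-0.49, edgeR adjusted p = 0.028), whereas Smc1a did not pass with the offsets (-0.16, edgeR adjusted p = 0.48). As UMIs per tube the values were -0.09 for Nipbl and 0.32 for Smc1a, neither past the threshold. The other 2 tested, Esco2 (0, 0, 16 and 21 UMIs) and Sgo2a (3, 1, 14 and 37 UMIs), which establish and protect cohesion in dividing cells, were called higher but could be tested only through their overload counts.

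Of the anaphase-promoting complex and its regulators, 3 of 12 tested genes were higher and 0 lower, beside 25.8% and 26.3% over all genes tested. The 3 were Anapc1 (9, 8, 35 and 53 UMIs), the activator Fzr1 (7, 6, 28 and 37 UMIs) and the inhibitor Fbxo5 (1, 1, 24 and 29 UMIs). Of the 9 that the sham libraries alone carried past the filter 1, Anapc1, was higher and 0 lower, beside 13.6% and 36.5% of all genes of this kind. With library sizes alone 9 of the 12 were higher, beside 37.3%, and 7 of the 9 carried past by sham alone, beside 24.6%. Among kinases and phosphatases around Cdk1, 4 of 10 tested were higher and 2 lower, and of the 6 that the sham libraries alone carried past the filter 1 was higher and 2 lower. Arpp19 and Ensa, paralogous inhibitors of the phosphatase PP2A, differed. Arpp19, with 19, 19, 67 and 53 UMIs, had a log2 fold change of 0.71 (SE 0.30, edgeR adjusted p = 0.064), a call lost with the abundance offsets and without any one library other than overload replicate 2, and Ensa, with 71, 57, 58 and 92 UMIs, had one of -0.74 (SE 0.20, edgeR adjusted p = 0.0061). Ppp2r2a, a regulatory subunit of PP2A, had 66, 78, 72 and 107 UMIs and a log2 fold change of -0.65 (SE 0.19, edgeR adjusted p = 0.0095), a call lost without sham replicate 2, with library sizes alone (edgeR adjusted p = 0.104) and with the abundance offsets (edgeR adjusted p = 0.22). In the cytokinesis list Chmp4b, which cuts the last bridge between daughter cells, had 77, 61, 78 and 120 UMIs and a log2 fold change of -0.45 (SE 0.19, edgeR adjusted p = 0.063), a call lost without sham replicate 1 or overload replicate 1, with library sizes alone (-0.17) and with the abundance offsets (-0.071). As UMIs per tube the call for Chmp4b was reversed to higher (0.52, edgeR adjusted p = 0.097), and Ensa and Ppp2r2a, at 0.23 and 0.31, did not pass.

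The regulators that read CHR and CCAAT letters or E2F sites gave 4 of 14 tested higher and 4 lower, near the 25.8% and 26.3% over all genes tested; none of the 4 higher was carried past the filter by sham alone. Foxm1, the activator of late cell cycle genes, had 1, 1, 16 and 15 UMIs, and Mybl2, its partner in the MuvB complex, 0, 0, 9 and 12 UMIs. E2f2 had 10, 3, 51 and 83 UMIs, and rose from 28.6 ± 21.2 to 150 ± 25.1 CPM (SD, n = 2), a log2 fold change of 2.38 (SE 0.38, edgeR adjusted p = 1.1e-04), which was 3.42 without sham replicate 1 and 1.76 without sham replicate 2. E2f4, with 8, 19, 43 and 75 UMIs, had a log2 fold change of 1.15 (SE 0.34, edgeR adjusted p = 0.012), which without sham replicate 1 was 0.60 (adjusted p = 0.21) and without sham replicate 2 was 1.89. Of the NF-Y subunits, Nfya (17, 7, 13 and 11 UMIs) and Nfyb (44, 48, 53 and 59 UMIs) were lower relative to other transcripts, and Nfyc (11, 10, 10 and 33 UMIs) did not pass. Neither Nfya nor Nfyb was called lower in DESeq2, and Nfya did not pass at an edgeR adjusted p of 0.05. With the abundance offsets 4 genes of this list were lower, beside 23.4% of all genes tested. With library sizes alone or as UMIs per tube 0 genes of this list were lower, beside 18.7% and 4.58% of all genes tested. The MuvB subunits Lin9, Lin54 and Rbbp4 did not pass. Of the 10 genes of the wider list described with a fold change, DESeq2 called Cit, E2f2 and Nipbl, and not Hjurp, Arpp19, E2f4, Smc1a, Ensa, Ppp2r2a or Chmp4b. Among those DESeq2 called, the sham libraries alone carried only Nipbl past the filter.

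DNA replication genes act just before mitosis. Of 38 genes, 27 were tested, 22 were higher and 0 lower (12 higher in DESeq2), beside 25.8% and 26.3% over all genes tested. Of those 27, 11 had fewer than 10 sham UMIs and all 11 were higher, a count from which nothing is read for the reason given above. The median log2 fold change of the 27 was 1.605. The summed level of the list went from 887 ± 88.0 to 2605 ± 173 CPM (SD, n = 2), a ratio of 2.94 beside 4.77 for the mitotic genes. The sham libraries alone carried 5 of the 27 past the filter, and of these 3 were higher, beside 13.6% of all such genes. Rrm2, the regulated subunit of ribonucleotide reductase, had 5, 8, 130 and 162 UMIs and the helicase subunit Mcm6 2, 1, 44 and 42 UMIs. Pcna, the sliding clamp, had 40, 34, 48 and 63 UMIs and a log2 fold change of -0.38 (SE 0.22, edgeR adjusted p = 0.18). Whether the 2 lists differed was not tested.

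Gene models limit a few of these values. In the annotation, 29 of the 52 mitotic genes overlap another gene, 20 of them one on the opposite strand, and whether the counting used strand is not given in the sources used here, so that reads from such overlaps cannot be assigned with certainty. Of the 14 overlapping pairs with both genes in the table, 3 had more UMIs for the overlapping gene than for the mitotic gene in every library: Elovl1, opposite Cdc20, with 19, 10, 29 and 49 UMIs, Lcorl, opposite Ncapg, with 4, 3, 10 and 11 UMIs, and Gm3550, opposite Cdc25c, with 10, 9, 13 and 6 UMIs. The others included Exosc9, opposite Ccna2, with 0, 2, 5 and 4 UMIs, and Oip5, opposite Nusap1, with 0, 0, 3 and 9 UMIs. Cks1brt, a retrotransposed copy of Cks1b, had 1 UMI in all, in overload replicate 1.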

How the data were processed

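MuSCs were profiled by CEL-Seq2 in 2 sham and 2 overload libraries. The authors extracted UMIs with UMI-tools (version 1.0.0), aligned reads to GRCm38 with HISAT2 (version 2.1.0), assigned them with featureCounts (version 1.6.4) and deposited UMI counts per gene without normalization; the annotation release and strand setting are not given in the sources used here. Counting 3′ ends means that a count depends on a transcript's annotated end and on depth, and genes with few molecules in sham have ratios with wide intervals.

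From the deposited counts of 19353 genes, filterByExpr (minimum count 10, minimum total 15) kept 7228 genes, which were scaled by TMM (factors 0.909, 0.908, 1.08 and 1.12) and fitted and tested with glmQLFit and glmQLFTest of edgeR (version 4.0.16, R version 4.3.3), with Benjamini-Hochberg adjustment and an adjusted p of 0.1 as threshold, that of the study. The common biological coefficient of variation was 9.50%, and 3732 genes had an unadjusted p under 0.05. On simulated data with the means of these libraries, the test found 49.3% of 2-fold changes and 96.3% of 4-fold changes among 148 changed genes tested. CPM used TMM-scaled library sizes, and lower bounds used a floor of 3 counts over the sham group.

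The 52 genes, their roles, the lists of other mitotic, DNA replication and marker genes and the naming rule were chosen with earlier results of these data known. The rule gave full statistics to genes with 10 or more sham UMIs, ratios to the most abundant others of each role, and named the 5 other mitotic genes with the highest counts in each direction; Anapc1, Fzr1, Fbxo5, Spc24, Knl1, Esco2, Sgo2a, the other lower cohesin genes, Foxm1, Mybl2, the NF-Y and MuvB subunits, Rrm2, Mcm6, Pcna, Ly6a and the genes of the closing observations lay outside it and were picked with their values in view. Of 112 other mitotic genes listed 111 were in the table, as were all 38 replication genes and 50 of 51 markers. The class of genes that the sham libraries alone carry past the count filter was defined after the values were seen. Promoters came from RefSeq tables. Alternatives were DESeq2 size factors, library sizes alone, UMIs per tube, offsets removing the dependence of fold changes on abundance, the DESeq2 test (version 1.42.0), no filter, at least 10 counts in every library of a group, an adjusted p of 0.05, a replicate block, libraries thinned to 260488 UMIs, and each library left out in turn, where a lone library was assumed to vary like the other group. Plots and counts used Python (version 3.11.15), pandas (version 2.3.3), numpy (version 2.4.6), scipy (version 1.17.1) and matplotlib (version 3.10.9).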

Additional observations from a re-analysis of the deposited data

How the results depend on the processing

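The number of mitotic genes called higher was 40 and ran from 36 (libraries thinned to equal size) to 46 (no filter) over 14 alternatives, with 0 lower under each, and 32 genes were called higher under all of them. In the main fit 33 of the 40 had fewer than 10 sham UMIs, so this stability is not read as support, for the reason given above. Over all genes tested 25.8% were higher in the main fit. The share was 37.3% with library sizes alone, 62.0% as UMIs per tube and 23.9% with the abundance offsets. The 8 genes lost somewhere were Aurka, Bub3, Cdc25b, Ckap2l, Ckap5, Incenp, Ndc80 and Nusap1. With the replicate number as a block (replicate block) the same 40 genes were called, and the block called 3670 genes in all. The deviations of same-numbered libraries from their group means had a correlation of -0.04 over the genes tested. Counting error can hold such a value near 0, so it cannot decide whether a sham and an overload library share a mouse. The main fit took the numbers as names only. The log2 ratio of the summed mitotic level, 2.25, was 2.50 with library sizes alone and 3.22 as UMIs per tube, and 2.15 to 2.36 when each library was left out. Over all genes, 1868 were higher and 1898 lower; these became 4481 and 331 as UMIs per tube and 762 and 1049 in DESeq2. Other mitotic genes called higher, 30, became 55 as UMIs per tube, 19 in DESeq2 and 51 with no filter. Those called lower, 14, became 3 with library sizes alone, 0 as UMIs per tube, 7 with the abundance offsets, 1 in DESeq2, 5 with no filter, 5 at an adjusted p of 0.05, 6 in thinned libraries and 6 to 8 when each library was left out. DNA replication genes called higher, 22, became 12 in DESeq2. Of the 12 mitotic genes with 10 or more sham UMIs, 4 that did not pass the threshold changed sign somewhere: leaving out each library gave log2 fold changes of -0.051 to 0.59 for Smc4, -0.19 to 0.87 for Hmgb2 and -0.071 to 0.17 for Anp32e. For Lbr, leaving out a sham library gave -0.73 and 2.31 and the abundance offsets -0.67, and without either overload library it was not tested, since it did not pass the count filter. The cause of these differences was not tested. Depth limits most the 40 genes with fewer than 10 sham UMIs, whose ratios rest on few molecules.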

Other observations

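Brakes on the cell cycle and markers of myogenic commitment, outside the mitotic genes, had these values in the same libraries. Ccnd1 (cyclin D), which drives cells out of quiescence, had 49, 40, 139 and 135 UMIs in sham replicates 1 and 2 and overload replicates 1 and 2, a log2 fold change of 0.67 (SE 0.21, edgeR adjusted p = 0.014), and the call was lost without sham replicate 2 (0.52, edgeR adjusted p = 0.17) and in DESeq2. Cdkn1a (p21), an inhibitor of cyclin-dependent kinases, was abundant throughout, with 389, 369, 397 and 509 UMIs and 1682 ± 15.3 CPM in sham against 1031 ± 1.05 CPM (SD, n = 2) after overload, a log2 fold change of -0.71 (SE 0.15, edgeR adjusted p = 0.0014), but as UMIs per tube the value was 0.26 (edgeR adjusted p = 0.12) and with the abundance offsets it was 0.44 (edgeR adjusted p = 0.0068), higher in place of lower. The related inhibitors Cdkn1b (110, 79, 170 and 182 UMIs) and Cdkn1c (122, 73, 193 and 226 UMIs) had log2 fold changes of -0.05 and 0.15 and did not pass. Myod1, with 83, 87, 176 and 229 UMIs, had 0.29 (SE 0.17, edgeR adjusted p = 0.17), and Myog, which marks differentiating cells that leave the cell cycle, rose from 224 ± 3.09 to 605 ± 48.5 CPM (SD, n = 2), a log2 fold change of 1.43 (SE 0.18, edgeR adjusted p = 1.0e-05). Transcripts of a differentiation gene and of the mitotic machinery were thus both higher in the same tubes; whether they came from the same cells cannot be told from pooled cells.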
